A study of Mus musculus with 6 samples.

Results

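The 8 genes Dpp4, Mme, Enpep, Anpep, Ace, Ece1, Mep1a and Mep1b encode peptidases of the cell surface known from podocytes or from the brush border of the proximal tubule. They were chosen by name, and every exonic part that the deposited tables list under their Ensembl 67 identifiers was used. This gave 8 of 36889 gene identifiers and 218 of 368092 exonic parts, where an exonic part is a stretch of exon cut at every boundary between annotated transcripts. All 8 genes passed the filter on low counts. Polyadenylated RNA was sequenced in 3 libraries labelled KO, with the genotype CD2BP2 Knockout, and 3 labelled WT Control, with the genotype Wildtype. All 6 are labelled as podocytes of mice on a C57BL/6 background. Per the labels, the CD2BP2 allele carries a loxP site downstream of exon 3 and a second one at the 5′ side, whose position they do not give. The treatment text describes CD2BP2 flox/flox MxCre+ mice and littermate controls of 6 to 10 weeks that received poly(I:C), and bone marrow macrophages grown from them, not podocytes; the Cre line of the podocyte libraries is not given in the sources used here. Nothing states that the 3 libraries of a group came from separate mice, so p-values reflect how these libraries varied, and that variation may be technical.

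Cd2bp2, the targeted gene, had 48.4, 47.3 and 51.0 CPM (counts scaled to a common library size) in the KO libraries, against 61.0, 61.8 and 60.8 CPM in the WT libraries. It averaged 48.9 ± 1.93 CPM in KO and 61.2 ± 0.564 CPM in WT (SD, n = 3 each), and its log2 fold change was -0.32 (SE 0.05, adjusted p = 0.0297 by the quasi-likelihood test of edgeR, Benjamini-Hochberg adjusted over 19742 genes). Part counts summed to between 214948912 and 255554573 per library in KO and between 186022084 and 231312370 in WT. The podocyte markers Podxl and Nphs1 stood at 1727 and 381 CPM per kb in KO and 1857 and 549.6 CPM per kb in WT. Such levels do not show that the libraries hold podocytes alone. The 24 podocyte markers summed to between 27874 and 30174 CPM in KO libraries and between 29811 and 33410 CPM in WT libraries. Genes of other kidney cells were present as well. The 25 proximal tubule markers summed to between 1245 and 1825 CPM in KO and between 797 and 1410 CPM in WT, and the 16 macrophage markers to between 219 and 245 CPM in KO and between 113 and 149 CPM in WT. Loop and distal tubule markers (highest Umod, Slc12a3 and Slc12a1) summed to between 279 and 1493 CPM in KO and between 189 and 352 CPM in WT, and 1 of 16, Avpr2, rose. All 16 had log2 fold changes above 0, with a median of 1.65 and 13 at an unadjusted p under 0.05; without KO library 2, which had the highest sum, the median was 0.82, and Avpr2 passed in 0 of 6 fits with 1 library left out. Endothelial markers (Ehd3, Emcn, Kdr) summed to between 9064 and 9727 CPM in KO and between 9633 and 10420 CPM in WT, and mesangial markers (Itga8, Pdgfrb, Ptn) to between 2947 and 3561 CPM in KO and between 3107 and 3389 CPM in WT, with none of 14 and 11 past edgeR's test (3 and 1 at an unadjusted p under 0.05, and 3 and 1 calls in DESeq2). Lymphocyte markers (Cd247, Trbc2, Nkg7) summed to between 39.6 and 53.2 CPM in KO and between 30.7 and 44.1 CPM in WT, with none of 14 past edgeR's test (3 at an unadjusted p under 0.05 and 1 call in DESeq2), and parietal cell markers (Cd24a, Cldn1, Aldh1a2) to between 384 and 450 CPM in KO and between 427 and 475 CPM in WT, with 1 of 10, Pax8, past the test and higher in KO, in 1 of 6 fits with 1 library left out. By gene, 8 of the 10 parietal markers had log2 fold changes above 0, with a median of 0.70 and 5 at an unadjusted p under 0.05. All 14 lymphocyte markers were above 0, with a median of 0.67, or 0.13 without KO library 1. Of the 14 endothelial markers 13 were below 0 (median -0.08), and of the 11 mesangial markers 8 (median -0.11). Over all genes tested, 4469 of 19742 had an unadjusted p under 0.05 in edgeR's test. The 3 of 14 endothelial, 1 of 11 mesangial and 3 of 14 lymphocyte markers were not above that share. DESeq2 also called more genes than edgeR over all genes, as given in the last section.

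Membrane peptidases cut peptide hormones and chemokines outside the cell. Dipeptidyl peptidase 4, the product of Dpp4 (also CD26), is a serine peptidase that removes N-terminal dipeptides from incretins and from chemokines such as CXCL10 and CXCL12. The other 7 are zinc metallopeptidases. Neprilysin (Mme) degrades natriuretic peptides and bradykinin, aminopeptidase A (Enpep) converts angiotensin II to angiotensin III, aminopeptidase N (Anpep) trims the products further, angiotensin-converting enzyme (Ace) makes angiotensin II, endothelin-converting enzyme 1 (Ece1) matures endothelin, and meprin alpha and beta (Mep1a, Mep1b) are abundant in the mouse proximal tubule brush border. Neprilysin and aminopeptidase A are classical surface antigens of the podocyte.

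The catalytic class of each enzyme can be read in its transcript, and the codons of the active-site motif were placed in exonic parts, except in Mme. In the lines that follow, capitals mark the codons of the active-site motif, found by an in-frame search of the longest coding transcript shared by GENCODE M21 (GRCm38) and Ensembl 67, with 15 bases on each side. The motif was the serine hydrolase motif GWSYGG for Dpp4 and the zinc-binding motif HEXXH for the others.
Dpp4, codons across parts 8 and 7: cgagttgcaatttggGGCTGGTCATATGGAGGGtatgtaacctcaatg
Mme: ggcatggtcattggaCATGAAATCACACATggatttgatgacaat
Enpep, part 25: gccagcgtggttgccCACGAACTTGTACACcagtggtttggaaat
Anpep, part 17: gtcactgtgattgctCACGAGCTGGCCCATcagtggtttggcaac
Ace, N domain, part 9: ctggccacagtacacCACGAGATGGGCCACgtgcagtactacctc
Ace, C domain, part 24: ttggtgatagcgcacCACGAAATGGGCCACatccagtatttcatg
Ece1, part 25: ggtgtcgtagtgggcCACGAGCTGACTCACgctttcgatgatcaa
Mep1a, part 9: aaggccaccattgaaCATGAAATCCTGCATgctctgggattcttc
Each transcript had 1 in-frame match except that of Ace, which had 2, 1 in each of its homologous domains. Mep1b had its match in part 8, and its sequence is not shown. The active-site serine codon was codon 624 of Dpp4. The Dpp4 motif crossed an exon junction, and the parts on either side of it, 8 and 7, held 3.09% and 3.75% of the gene's counts in KO and 3.09% and 3.76% in WT, and the libraries of the groups overlapped in both shares.

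Ordered by mean level per kb of exonic length, Enpep came first, followed by Dpp4, Mme, Ece1, Mep1a, Ace, Anpep and Mep1b. Enpep averaged 577 ± 46.9 CPM per kb in KO and 636 ± 39.2 CPM per kb in WT (SD, n = 3 each), which was rank 26 of the 19742 genes tested. Dpp4 held rank 148, Mme rank 522 and Ece1 rank 948. The other 4 lay between ranks 4934 and 10276. A read across several parts enters each of them, which raises the level per kb of genes cut into short parts. In KO, Enpep part 23 with 13 bases averaged 3558 CPM per kb, and part 2 with 657 bases averaged 389. The order and ranks therefore depend in part on how each gene is cut. Within WT, Dpp4 (240.1 to 265 CPM per kb) did not overlap with Enpep above it or Mme below it, whereas Mep1a overlapped with Ace, and Mep1b overlapped with Mep1a, Ace and Anpep. In KO the first 4 genes were again separated from each other without overlap, and so were Mep1a and Ace, while Anpep and Mep1b overlapped. Of the 8 genes, 1 passed the test, downward, and none rose. Over all genes tested 3.37% passed in either direction, 1.62% upward and 1.76% downward. The median log2 fold change of the 8 was 0.04, against 0.005 over all genes tested. In 2 of the 8, Dpp4 and Ece1, every KO library lay below every WT library; 28.9% of all genes tested had groups that did not overlap, and 14.8% had KO lower.

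**Figure D1:**
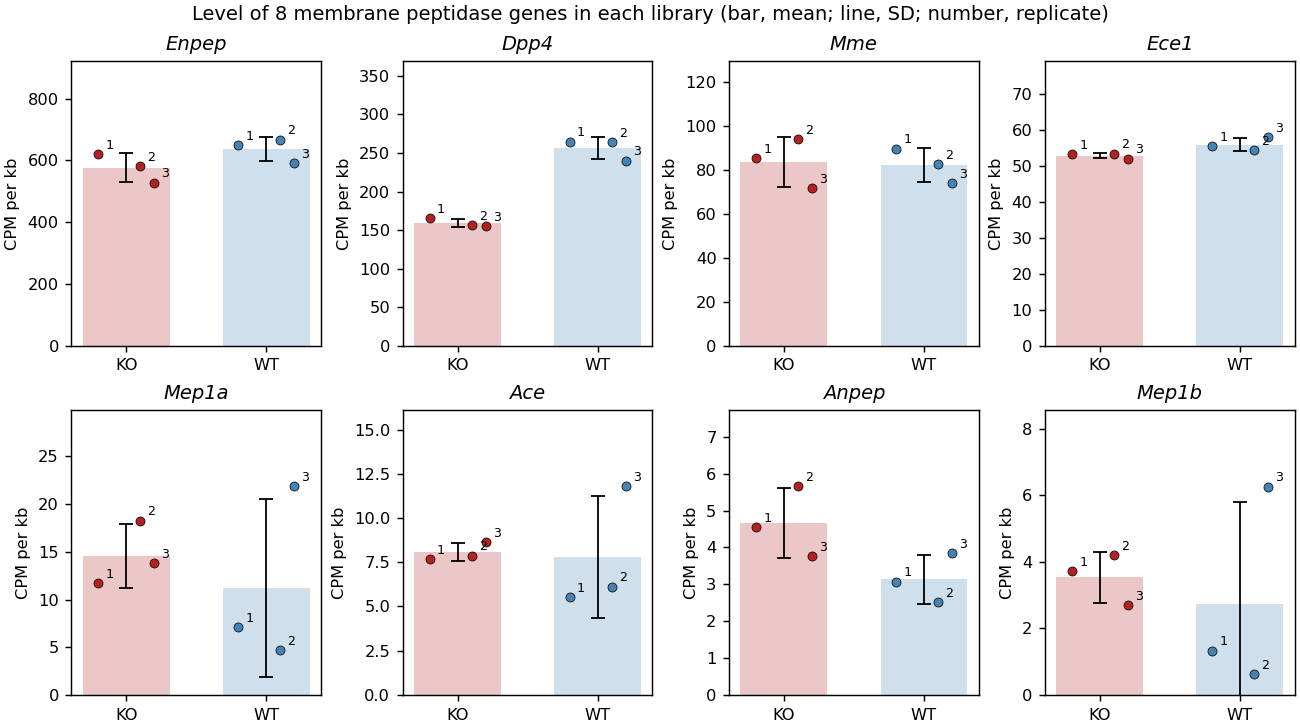
Level of each of the 8 genes in CPM per kb of exonic length, with KO left of WT; bars are means, vertical lines the SD over 3 libraries, and points the single libraries with their replicate number. Dpp4 is lower in all 3 KO libraries, and in Mep1a, Ace and Mep1b the highest point is WT library 3.

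Dpp4 (ENSMUSG00000035000; NCBIM37 chromosome 2, 62168130 to 62250288, minus strand) was the member that fell. Its level was 1046, 990.2 and 981 CPM in the KO libraries 1, 2 and 3, against 1673, 1669.8 and 1517 CPM in the WT libraries 1, 2 and 3. The lowest WT library was thus well above the highest KO library, and libraries of 1 group differed by at most 1.10-fold. The means were 1006 ± 35.4 CPM in KO and 1619.9 ± 88.9 CPM in WT (SD, n = 3 each). The log2 fold change was -0.69 with an SE of 0.06, so that KO had 62.1% of the WT level (adjusted p = 0.0108, edgeR's quasi-likelihood test). The fall no longer passed the test without WT library 1 (log2 fold change -0.66, adjusted p = 0.0531) or without WT library 2 (-0.67, adjusted p = 0.0719). In bulk RNA, fewer cells of a type and less RNA per cell cannot be told apart.

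Dpp4 was also set against other genes of podocytes in the same libraries. Per summed podocyte markers it amounted to 3.47%, 3.55% and 3.44% in the KO libraries, against 5.07%, 5.00% and 5.09% in the WT libraries. Per Enpep it amounted to 37.1 ± 2.04% in KO and 54.1 ± 0.826% in WT, and per Nphs1, the nephrin gene, to 50.1 ± 2.90% in KO and 55.8 ± 2.01% in WT (SD, n = 3 each). The groups did not overlap in any of these 3 ratios, and each had a two-sided exact permutation p of 0.1, the smallest that 3 against 3 libraries allow (0.225 after Benjamini-Hochberg adjustment over the 9 ratios computed). Nphs1 itself had a log2 fold change of -0.53 (SE 0.08, adjusted p = 0.0350 in edgeR), and the ratio to Nphs1 differed the least of the 3. Among the podocyte markers 1 of 24, Npnt, rose and Nphs1 alone fell, and the median log2 fold change was -0.17. Nphs1 and Npnt each passed in 0 of 6 fits with 1 library left out. The part of these markers in the Dpp4 result was not tested beyond these ratios.

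The fall ran through the whole gene. In all 34 of its 36 exonic parts with a mean count of at least 50, the KO mean was below the WT mean, with log2 ratios between -1.42 and -0.40 and a median of -0.69. The last exon, part 1 with 2647 bases, held 20.7 ± 0.236% of the Dpp4 counts in KO and 20.9 ± 0.148% in WT (SD, n = 3 each). The first 2 exons of the coding transcript, parts 33 to 36, held 5.29%, 5.18% and 5.09% in the KO libraries, against 4.69%, 4.89% and 5.08% in the WT libraries. All 3 KO values were the higher ones, by a narrow margin over WT library 3 (exact permutation p = 0.1; 0.425 adjusted over 17 blocks of parts), and none of these parts passed the exon usage test.

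**Figure D2:**
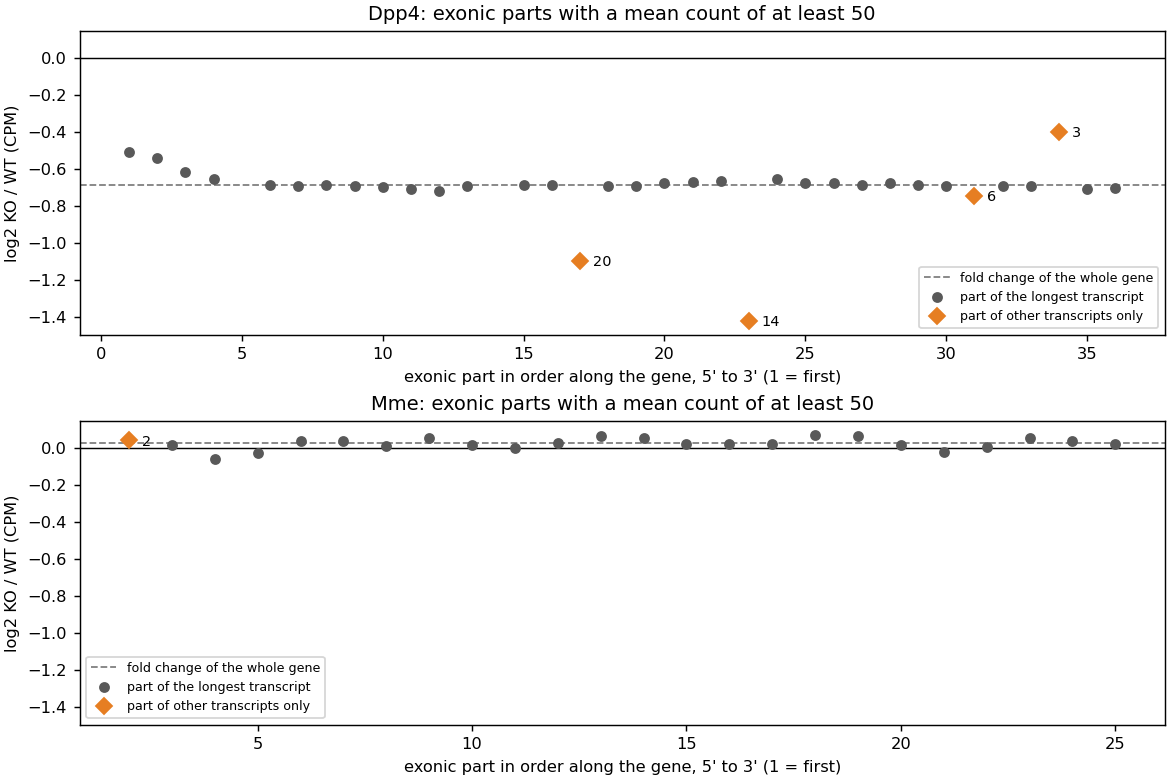
Log2 ratio of the KO mean CPM to the WT mean CPM of each exonic part of Dpp4 (top) and Mme (bottom) with a mean count of at least 50, in 5′ to 3′ order along the gene; numbers at the diamonds are the part numbers of the files. The Dpp4 parts of the coding transcript lie close to the dashed line at -0.69 except for the first exon (parts 34 to 36), which lies above it, parts 14 and 20 lie below it and part 3 above it, and all Mme parts lie near 0.

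A single part of Dpp4 departed from the rest of the gene past the test, part 14 (NCBIM37 chromosome 2, 62195427 to 62195764, 338 bases). It is the first exon of a processed transcript, lies in an intron of the coding transcript, and is chr2:62357370-62357707 on the minus strand in the GRCm38 annotation of the same transcript. The line gives the last 200 bases of this exon in lower case and the first 30 bases of the next exon, which the coding transcript shares, in capitals, to show where the alternative start joins the exons of the enzyme.
Dpp4 part 14 and the following exon: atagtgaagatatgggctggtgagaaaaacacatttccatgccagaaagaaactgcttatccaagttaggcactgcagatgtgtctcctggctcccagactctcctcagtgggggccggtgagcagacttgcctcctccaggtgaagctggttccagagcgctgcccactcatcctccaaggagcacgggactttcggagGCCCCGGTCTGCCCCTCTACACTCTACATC
Part 14 had 448, 243 and 357 counts in the KO libraries, against 720, 770 and 783 counts in the WT libraries, or 4.26 ± 0.925 CPM per kb in KO and 11.4 ± 1.24 CPM per kb in WT (SD, n = 3 each). As a share of the gene's counts it made up 0.165%, 0.112% and 0.152% in KO, against 0.232%, 0.256% and 0.227% in WT. The Clopper-Pearson 95% intervals for counting error ran up to 0.181% in KO library 1 and down to 0.211% in WT library 3. The intervals of the groups thus did not meet, but neither did all of those within KO. That of KO library 2 ended at 0.127% and that of KO library 3 began at 0.136%. Libraries varied beyond counting error, so these intervals do not test the groups. The exact permutation p of this share was 0.1 (0.425 adjusted over 17 blocks of parts). Its usage relative to the gene had a log2 fold change of -0.73 (adjusted p = 0.00212, diffSpliceDGE in edgeR with Benjamini-Hochberg adjustment over 236061 parts), and Dpp4 passed the gene-level Simes test (adjusted p = 0.00639). Of 206 member parts tested it was the one that passed; over all parts tested 0.0627% passed, and 0.022% with usage that fell. By the Simes test 0.383% of the genes tested passed. The call was lost without KO library 2 (adjusted p = 0.198) or without WT library 2 (adjusted p = 0.194).

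Part 14 shares 232 bases with the first part of Gm13561 (ENSMUSG00000087518), a gene annotated as antisense on the plus strand. The counts do not separate strands: where a part lies over one of the opposite strand and 90% or more of the bases are common, the total counts came within 10% of each other in 60 of 61 cases. That part of Gm13561 had 554, 313 and 449 counts in the KO libraries, against 854, 963 and 988 counts in the WT libraries, the same order of groups as part 14. The other 4 parts of Gm13561 summed to 4, 17 and 7 counts in KO, against 0, 0 and 1 count in WT. As a gene, Gm13561, named here after its values were seen, had a log2 fold change of -1.36 (SE 0.17, adjusted p = 0.0240 in edgeR). That test rests almost wholly on its first part. Whether reads over part 14 come from the Dpp4 strand or from the antisense strand cannot be told apart.

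**Figure D3:**
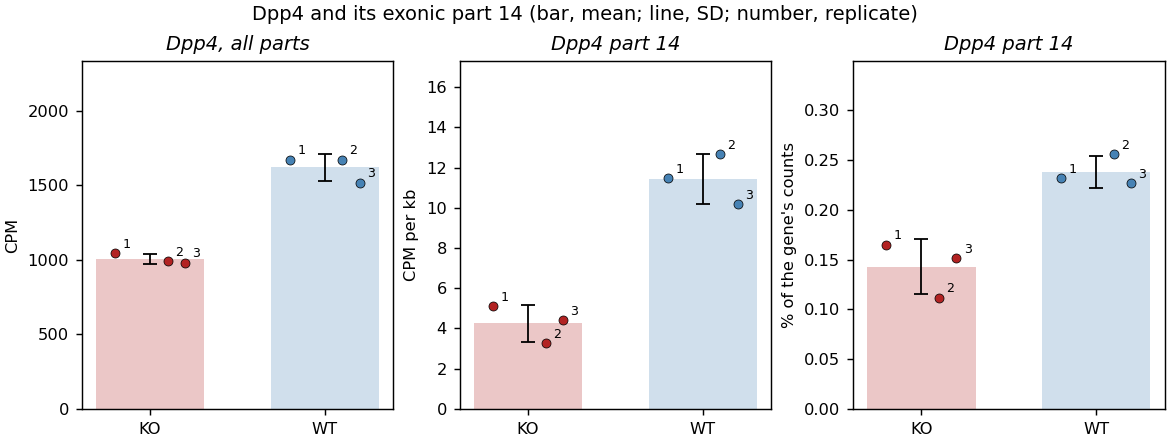
Dpp4 level in CPM over all parts (left), level of part 14 in CPM per kb (middle) and share of part 14 in the counts of the gene in percent (right), KO left of WT; bars are means, vertical lines the SD, and points the single libraries with their replicate number. Part 14 is lower in KO in level and in share, with shares of at most 0.165% in KO and at least 0.227% in WT.

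The other Dpp4 parts that are absent from the coding transcript did not pass the exon usage test. Part 20, intron sequence retained in a short transcript, had 145, 86 and 181 counts in KO, against 223, 209 and 294 counts in WT (usage log2 fold change -0.41, unadjusted p = 0.0527). Part 3, retained intron sequence near the 3′ end, had 361, 215 and 375 counts in KO, against 321, 339 and 359 counts in WT (usage log2 fold change 0.29, unadjusted p = 0.0871). Parts 6, 23 and 32 had usage log2 fold changes of -0.05, -0.08 and 0.24. Their adjusted p-values, like those of parts 20 and 3, were 1.00. Together the 6 parts outside the coding transcript held 0.429 ± 0.0900% of the Dpp4 counts in KO and 0.522 ± 0.0363% in WT (SD, n = 3 each), and the groups overlapped.

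Enpep and Mme, the classical podocyte surface antigens, did not pass the test. Enpep (ENSMUSG00000028024; chromosome 3, 128972093 to 129035638, minus strand) had 2923, 2741 and 2484 CPM in the KO libraries, against 3055, 3139 and 2785 CPM in the WT libraries. KO library 1 lay above WT library 3, so the groups overlapped, and the log2 fold change of -0.14 (SE 0.08) had an edgeR adjusted p of 0.374. Relative to the summed podocyte markers Enpep stood at 9.41 ± 0.614% in KO and 9.33 ± 0.0665% in WT (SD, n = 3 each; exact permutation p = 1). Its part with the smallest p, part 5, held between 15 and 49 counts in KO and between 41 and 47 counts in WT (usage log2 fold change -0.51, adjusted p = 1.00).

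Mme (ENSMUSG00000027820; chromosome 3, 63099794 to 63186153, plus strand) had 374, 411 and 314 CPM in the KO libraries, against 392, 362 and 324 CPM in the WT libraries. The highest and the lowest of the 6 values were both KO libraries. The means were 366 ± 49.1 CPM in KO and 359 ± 34.0 CPM in WT (SD, n = 3 each), with a log2 fold change of 0.03 (SE 0.12, edgeR adjusted p = 0.915). The sign turned to -0.07 without KO library 2 and to -0.04 without WT library 3. Ensembl 67 gives Mme 2 transcripts, which differ in the first exon and in the length of the last. The first exon of the longer transcript, part 1, had 50, 45 and 35 counts in KO, against 37, 31 and 39 counts in WT, and the alternative first exon, part 2, had 1049, 982 and 744 counts in KO, against 760, 709 and 740 counts in WT. Part 1 therefore made up 4.47 ± 0.0854% of these first exon counts in KO and 4.61 ± 0.409% in WT (SD, n = 3 each; exact permutation p = 0.7), and part 2 had more counts than part 1 in every library. These counts are not scaled by length, and part 1 has 78 bases and part 2 has 139. The covered fraction of part 1 was 0.115 in KO library 3 and in WT library 2, and 1 in the others. The far end of the last exon, part 25, had 91.5 ± 2.92% of the counts per base of its near end, part 24, in KO and 92.4 ± 2.18% in WT (exact permutation p = 0.6). All 25 parts were tested and none passed, with usage log2 fold changes of -0.03, 0.02 and -0.01 for parts 1, 2 and 25.

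Ece1 (ENSMUSG00000057530; chromosome 4, 137418152 to 137521144, plus strand) had 282, 283 and 275 CPM in the KO libraries, against 294, 288 and 307 CPM in the WT libraries. It had the narrowest spread of the 8, with a coefficient of variation of 1.46% in KO and 3.30% in WT, and the groups stood apart although the log2 fold change was -0.08 (SE 0.05, edgeR adjusted p = 0.351). Its part with the smallest p, part 3, an internal exon of a single transcript, had 91, 93 and 79 counts in KO, against 65, 52 and 55 counts in WT. It held 0.131 ± 0.0163% of the Ece1 counts in KO and 0.0994 ± 0.0203% in WT (SD, n = 3 each), and the usage log2 fold change of 0.41 had an adjusted p of 1.00.

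Ace (ENSMUSG00000020681; chromosome 11, 105829259 to 105851278, plus strand) has 2 promoters, a somatic one and an internal one that gives the shorter testis form with the C domain alone. The 250 bases before each start are shown because the counts on either side of the internal start were compared. They are from RefSeq (GRCm38.p6), and capitals mark matches to TATAAA or TGAGGTCA on either strand.
Ace somatic promoter, chr11:105967698-105967947, plus strand: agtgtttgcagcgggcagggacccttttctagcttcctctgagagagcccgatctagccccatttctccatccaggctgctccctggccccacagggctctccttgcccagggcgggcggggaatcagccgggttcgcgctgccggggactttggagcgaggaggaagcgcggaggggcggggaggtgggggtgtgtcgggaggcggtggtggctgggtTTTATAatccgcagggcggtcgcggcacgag
Ace internal promoter, chr11:105974939-105975188, plus strand: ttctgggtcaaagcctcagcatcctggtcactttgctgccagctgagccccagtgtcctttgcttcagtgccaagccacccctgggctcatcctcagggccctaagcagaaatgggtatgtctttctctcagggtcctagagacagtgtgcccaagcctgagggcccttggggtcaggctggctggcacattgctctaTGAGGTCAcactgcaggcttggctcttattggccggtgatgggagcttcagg
TATAAA was found in the somatic promoter, in reverse complement, and in 12.4% of the 32851 promoter windows of 250 bases. TGAGGTCA was found in the internal promoter and in 1.94% of the windows. The 2 motifs do not overlap. The somatic promoter was richer in G and C, at 67.2% against 58.0% in the internal one. The first exon of the internal form, part 14, had 22, 18 and 29 counts in KO, against 20, 18 and 28 counts in WT, or 3.85 ± 0.610% in KO and 5.13 ± 1.42% in WT of the counts per base over the shared parts 15 to 29 (SD, n = 3 each; exact permutation p = 0.3). The parts upstream of it, 1 to 13, stood at 61.5 ± 0.596% in KO and 66.1 ± 3.25% in WT of the counts per base over parts 15 to 29, without overlap of the groups (exact permutation p = 0.1; 0.425 over 17 blocks). A read across several parts enters each of them, which raises counts per base in short parts. These percentages are therefore not the proportions of the 2 forms. In every library the parts upstream of the internal start had more counts per base than its own first exon.

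As a gene, Ace had 40.6, 41.6 and 45.6 CPM in the KO libraries, against 29.3, 32.4 and 62.3 CPM in the WT libraries. WT libraries 1 and 2 were the lowest of the 6 and WT library 3 the highest, and the log2 fold change was 0.04 (SE 0.28, edgeR adjusted p = 0.947). Without WT library 3 it was 0.47 (adjusted p = 0.0650). Part 30, in an alternative transcript, had 169, 125 and 143 counts in KO, against 55, 51 and 172 counts in WT. Per base of parts 15 to 29 it stood at 26.1 ± 3.12% in KO and 19.4 ± 3.56% in WT (SD, n = 3 each). The exact permutation p was 0.1 (0.425 over 17 blocks). The groups did not overlap, by a narrow margin of KO library 3 at 23.7% over WT library 3 at 23.3%. The usage of part 30 did not pass (log2 fold change 0.39, adjusted p = 1.00). Parts 8 and 26 of Ace overlap Gm11651 on the other strand.

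The meprin genes shared a pattern over libraries. Mep1a (ENSMUSG00000023914; chromosome 17, 43611273 to 43639761, minus strand) had 40.5, 63.0 and 47.6 CPM in the KO libraries, against 24.5, 16.2 and 75.5 CPM in the WT libraries. Mep1b (ENSMUSG00000024313; chromosome 18, 21229286 to 21258700, plus strand) had 8.90, 10.04 and 6.43 CPM in the KO libraries, against 3.18, 1.48 and 14.9 CPM in the WT libraries. In both, WT library 3 was above all KO libraries, and WT libraries 1 and 2 were below all of them. The highest WT library exceeded the lowest 4.66-fold in Mep1a and 10.1-fold in Mep1b, whereas KO libraries differed 1.56-fold in each. The log2 fold changes of 0.38 (SE 0.55, edgeR adjusted p = 0.731) for Mep1a and 0.37 (SE 0.78, adjusted p = 0.818) for Mep1b did not pass. Without WT library 3 they were 1.31 (adjusted p = 0.0726) and 1.86 (adjusted p = 0.0769). Mep1b had fewer CPM than Mep1a in every library. Per Mep1a, Mep1b amounted to 17.2 ± 4.37% in KO and 13.97 ± 5.41% in WT of its CPM (SD, n = 3 each; exact permutation p = 0.4). Kap, an androgen-regulated gene of the proximal tubule, had its highest value in WT library 3 too, with 213.5, 329 and 209 CPM in KO, against 90.9, 45.3 and 394 CPM in WT. Per summed proximal tubule markers, of which Kap is one, Mep1a amounted to 2.83%, 3.45% and 3.82% in the KO libraries, against 2.73%, 2.03% and 5.35% in the WT libraries, with means of 3.37% in both groups (exact permutation p = 1).

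**Figure D4:**
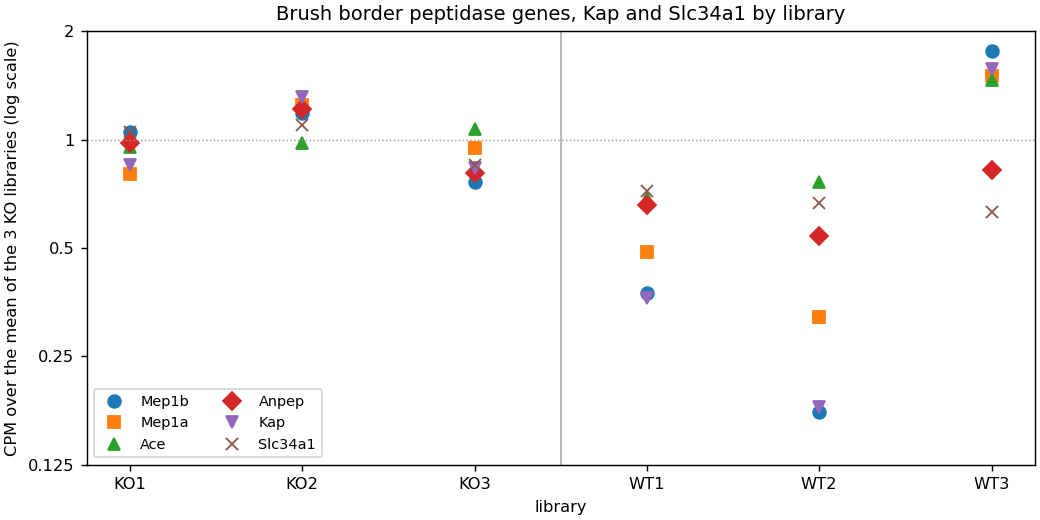
CPM of Mep1b, Mep1a, Ace, Anpep, Kap and Slc34a1 in each library, divided by the mean of the 3 KO libraries of that gene (log axis), KO libraries left of the WT libraries. Mep1b, Mep1a, Ace and Kap are highest in WT library 3 and low in WT libraries 1 and 2, while Slc34a1, a phosphate transporter gene, is low in all 3 WT libraries.

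Anpep (ENSMUSG00000039062; chromosome 7, 86966689 to 86993096, minus strand) had 17.7, 21.9 and 14.6 CPM in the KO libraries, against 11.9, 9.75 and 14.9 CPM in the WT libraries. KO library 3 lay just below WT library 3, so the groups overlapped. The log2 fold change of 0.57 (SE 0.20) did not pass edgeR's quasi-likelihood test (adjusted p = 0.167) and passed in DESeq2 (adjusted p = 0.0411). Per summed proximal tubule markers Anpep amounted to 1.24%, 1.20% and 1.17% in the KO libraries, against 1.33%, 1.22% and 1.06% in the WT libraries, with means of 1.20% in both groups (exact permutation p = 1). Of the 25 proximal tubule markers 3 rose, namely the transporter genes Slc34a1 and Slc22a12 and the brush border myosin gene Myo7b, none fell, and the median log2 fold change was 0.54. With 1 library left out, Slc34a1 and Slc22a12 each passed in 1 of 6 fits and Myo7b in 0 of 6. In Anpep, Mep1a and Mep1b no exonic part passed the usage test, and the smallest unadjusted p-values were 0.391, 0.771 and 0.645.

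Among 35 other membrane and peptide-processing peptidases, 30 passed the filter and none passed edgeR's test, with 4 at an unadjusted p under 0.05 and 3 calls in DESeq2. The 4 of 30 were not above the share over all genes tested, 4469 of 19742. The median log2 fold change of these peptidases was 0.08. The highest by level were the carboxypeptidase gene Cpd, the lysosomal Tpp1 and Ctsa, the cytosolic Dpp8 and the prohormone-processing Cpe. Dpp8, a relative of Dpp4 that lacks a membrane anchor, averaged 41.3 CPM per kb in KO and 45.3 CPM per kb in WT (log2 fold change -0.13, SE 0.05, edgeR adjusted p = 0.189). Fap, the closest relative of Dpp4 in the mouse genome, averaged 0.502 CPM per kb in KO and 0.329 CPM per kb in WT (adjusted p = 0.268). Fap is named outside the rule on levels, after its values were seen.

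Among 46 genes of peptide ligands, precursors, receptors and partners of these enzymes, 37 were tested, 2 rose and 2 fell, and the median log2 fold change was 0.06. The chemokine gene Cxcl12, whose product is a substrate of dipeptidyl peptidase 4, had 91.0, 80.0 and 74.2 CPM in the KO libraries, against 208, 171 and 170.6 CPM in the WT libraries (log2 fold change -1.17, SE 0.11, edgeR adjusted p = 0.0115). Ackr3, which encodes a scavenging receptor for CXCL12, had 92.5, 90.6 and 81.0 CPM in the KO libraries, against 156, 179 and 195 CPM in the WT libraries (log2 fold change -1.01, SE 0.10, adjusted p = 0.0115). Both RNAs were lower in every KO library than in any WT library. Cxcl10, another chemokine substrate of the enzyme, had 76.7, 36.1 and 25.3 CPM in the KO libraries, against 5.43, 3.21 and 3.68 CPM in the WT libraries (log2 fold change 3.49, SE 0.46, adjusted p = 0.0260). KO library 1 was the highest by far. Slc6a19, a neutral amino acid transporter gene of the brush border, had 22.05, 29.8 and 20.7 CPM in the KO libraries, against 14.8, 11.9 and 14.5 CPM in the WT libraries (log2 fold change 0.82, SE 0.16, adjusted p = 0.0499). Leaving out 1 library at a time, Cxcl12 and Ackr3 passed in 5 of 6 fits each, failing without WT library 2, Cxcl10 passed in 2 of 6, and Slc6a19 in 0 of 6.

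Of the angiotensin, natriuretic peptide and endothelin genes on the list none passed. Npr1, the receptor of atrial natriuretic peptide, averaged 108 CPM per kb in KO and 128 CPM per kb in WT (log2 fold change -0.25, adjusted p = 0.127), Agtr1a averaged 84.8 CPM per kb in KO and 84.0 CPM per kb in WT, and Ren1 averaged 58.0 CPM per kb in KO and 84.5 CPM per kb in WT. Npr3, the clearance receptor, and Adm, the adrenomedullin gene, completed the 5 highest levels, and none of these 5 passed edgeR's test. In the macrophage marker list 4 of 16 genes rose (Lyz2, Tyrobp, Ctss and Spi1), with a median log2 fold change of 0.83. With 1 library left out, Lyz2 passed in 5 of 6 fits and Tyrobp, Ctss and Spi1 each in 0 of 6. Their part in the chemokine values was not tested.

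**Figure D5:**
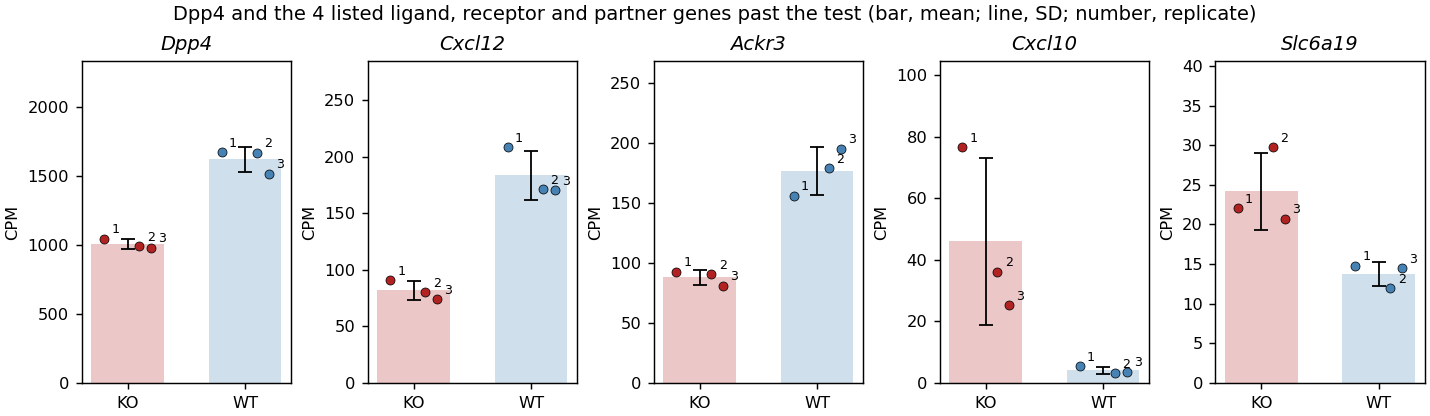
CPM of Dpp4 and of the 4 listed ligand, receptor and partner genes past the test, KO left of WT; bars are means, vertical lines the SD over 3 libraries, and points the single libraries with their replicate number. Dpp4, Cxcl12 and Ackr3 are lower and Cxcl10 and Slc6a19 higher in all 3 KO libraries.

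The genes whose log2 CPM followed Dpp4 most closely over the 6 libraries were Fam167b, Rprd2 and Cep83, with Pearson correlations of 0.998, 0.998 and 0.997 among 13143 genes ranked. Their own log2 fold changes were -0.93, -0.29 and -0.30, and all passed edgeR's test (adjusted p = 0.00801, 0.0341 and 0.0376). For Mme they were Sar1a, Lrpprc and Ccdc39, with correlations of 0.982, 0.981 and 0.981, and none of them passed the test. These correlations describe 6 libraries that share their normalization, with no test, and those with Dpp4 include its difference between KO and WT. Genes picked for following Dpp4 are thus likely to pass between KO and WT, and their calls are no separate result.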

How the data were processed

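Per the file columns, the authors deposited, for each of 6 libraries, a read count per exonic part with the bases covered and the covered fraction; the annotation column names mouse NCBIM37, Ensembl 67. TopHat 1.4.1 and GRCh37 come from the submitters' processing notes, and GRCh37 is a human build. The sources used here name no counting tool and no strand setting. Part counts were summed per gene, so a read across several parts enters more than once. Of 35981 single identifiers 31300 had a symbol. The 908 aggregates of several genes were kept as entries of their own, and an aggregate holding a single listed gene took its symbol. All 8 members were single identifiers. Genes were filtered, scaled by TMM and tested with edgeR 4.0.16 (R 4.3.3) at an adjusted p of 0.05, and parts with diffSpliceDGE. Alternatives used DESeq2 1.42.0 and limma 3.58.1. Ratios were compared with scipy 1.17.1. CPM used effective library sizes. Scripts were tested on simulated data. The 8 genes and all lists were chosen with earlier results of these data known. Named were all members, called list genes, the 5 highest genes per list (3 per marker list), parts outside the coding transcript of Dpp4 and Mme, the smallest-p part of the others, and the 3 genes most correlated with Dpp4 and with Mme. A marker gene that this rule names is not reported here. Intervals cover counting error only. Replicate numbers were not taken as pairs. Chi-square per gene between replicates was 75.9 to 219, so none was counted as a duplicate.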

Additional observations from a re-analysis of the deposited data

How the results depend on the processing

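The 666 genes called became 2766 in DESeq2, 424 from the longest exonic part alone, 299 with parts in all transcripts, 98 without WT library 3 and KO library 3 together (chosen after seeing the data) and 31 to 254 when 1 library was left out. Among the 8 peptidase genes the count was 2 in DESeq2, 0 with parts in all transcripts, where 4 could be tested and Dpp4 could not, and 0 to 1 with 1 library left out. Among other peptidases DESeq2 called 3. The 4 ligand and partner genes became 2 in limma-voom and 2 without WT library 3 and KO library 3, and 0 to 3 with 1 library left out. The 148 exonic parts became 409 with diffSplice, 315 with the gene total as offset and 52 to 175 with 1 library left out, and member parts 0 to 1. With 1 library left out, log2 fold changes ran from -0.073 to 0.12 in Mme, -0.15 to 0.47 in Ace and -0.10 to 1.86 in Mep1b, and usage from -0.25 to 0.16 in Dpp4 part 6, -0.23 to 0.025 in Dpp4 part 23, -0.062 to 0.0083 in Mme part 1, -0.012 to 0.053 in Mme part 2 and -0.026 to 0.0054 in Mme part 25. With the longest part alone Ace was at -0.076. The cause of these shifts was not tested. With the replicate number as a block, 82 genes and 2 ligand and partner genes were called, and Dpp4 kept its call (adjusted p = 0.0419 in edgeR). Same-numbered libraries deviated with correlations of 0.216, -0.168 and 0.283, and other-numbered ones with correlations from -0.413 to 0.223. These values cannot exclude pairing, and the numbers were not taken as pairs. A count under 50 per part limits what exon usage tests can show.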
